A study of Mus musculus with 6 samples.

Results

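The lipid-associated macrophage genes described here are the 10 genes Trem2, Tyrobp, Gpnmb, Spp1, Cd9, Cd63, Lgals3, Lgals1, Fabp5 and Plin3, taken by symbol in GENCODE M21 from the 54532 genes of the count table. All 10 were found, and all 10 passed the filter on low counts that left 15751 genes to test. They were measured by RNA-Seq of epididymal fat, a visceral depot of male mice, in 3 samples from mice fed a normal diet (ND, 4.5% fat) and 3 from mice fed a high-fat diet (HFD, 60% fat), all untreated C57BL/6J. The diets started at 4 weeks of age and lasted 16 weeks. Diet was the only factor in the labels that separated the groups. The sources do not state that each sample is 1 mouse, so p-values measure the spread between these samples. The comparison addresses how the adipose tissue (AT) of HFD-fed mice differed from that of ND-fed mice.

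Lipid-associated macrophages are cells of obese AT that gather around dying adipocytes, take up their lipid and break it down in lysosomes. TREM2 is the lipid-sensing surface receptor that marks them, and it signals through the adaptor TYROBP (DAP12), which recruits the kinase SYK. The other members encode a lysosomal glycoprotein (Gpnmb), a secreted matrix protein (Spp1, osteopontin), tetraspanins of membranes and vesicles (Cd9 and Cd63), sugar-binding galectins (Lgals3 and Lgals1), a fatty acid chaperone (Fabp5) and a coat protein of lipid droplets (Plin3). Most of them are also used by other cells, so the list is a set of genes and not a count of cells. In RNA from whole tissue, more cells of a type and more RNA of a gene per cell cannot be told apart.

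The labelled tissue was checked on marker genes. The 10 adipocyte markers summed to between 22833 and 29362 CPM (counts scaled to a common library size) on ND and between 4228 and 14048 CPM on HFD, with 5 of 10 lower on HFD by edgeR's quasi-likelihood test at an adjusted p-value under 0.05, led by Cfd, Retn and Adrb3, which fell by 3.42, 2.05 and 1.84 in log2 fold change. General macrophage markers summed to between 1919 and 2037 CPM on ND and between 4581 and 10091 CPM on HFD. Count totals lay between 16996896 and 18859320 per library. A floor of 3 counts corresponded to 0.15 to 0.181 CPM, which covers counting error only. ND replicate 3 stood apart in 7 epithelial markers, which summed to 199 CPM there and to between 8.98 and 12.5 CPM in the other 5 libraries, and in motile cilium markers, which summed to 107 CPM there and to between 2.48 and 5.59 CPM elsewhere.

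Sequences upstream of the start are shown for the members with the 3 largest increases, together with the motifs that were searched for. RefSeq sequences (GRCm38.p6, from 250 bases before the start to 50 bases after it) were matched by symbol for 7 of the 10 members, in 8 windows because Spp1 has 2 starts. Tyrobp, Lgals1 and Fabp5 had no entry. The 250 bases before each start are written 5′ to 3′ in lower case, all on the + strand, at chr6:49036268-49036517 for Gpnmb, chr5:104434861-104435110 for the first start of Spp1 and chr17:48346151-48346400 for Trem2. Capitals mark a PU.1 motif, the recognition sequence of a master transcription factor of macrophages.
Gpnmb: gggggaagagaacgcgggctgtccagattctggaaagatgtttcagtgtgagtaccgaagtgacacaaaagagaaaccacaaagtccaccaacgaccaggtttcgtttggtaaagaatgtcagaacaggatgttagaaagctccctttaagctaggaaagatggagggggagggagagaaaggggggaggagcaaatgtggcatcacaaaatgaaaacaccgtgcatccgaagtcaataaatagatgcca
Spp1: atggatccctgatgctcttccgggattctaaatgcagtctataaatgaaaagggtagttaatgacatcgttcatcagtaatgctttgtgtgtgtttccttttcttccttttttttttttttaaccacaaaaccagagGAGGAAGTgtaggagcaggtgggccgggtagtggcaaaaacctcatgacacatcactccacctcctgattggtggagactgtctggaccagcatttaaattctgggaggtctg
Trem2: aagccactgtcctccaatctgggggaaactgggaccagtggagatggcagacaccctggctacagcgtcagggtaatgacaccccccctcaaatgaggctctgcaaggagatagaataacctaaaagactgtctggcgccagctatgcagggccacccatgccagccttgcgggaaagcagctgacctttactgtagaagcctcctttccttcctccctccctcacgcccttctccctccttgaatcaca

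The motifs were searched on both strands of the whole windows. GAGGAAGT, a PU.1 motif, was present in 1 of the 8 windows, that of the first Spp1 start, where its first base lay 113 bases before the start (chr5:104434998-104435005). It was present in 3.20% of all 32851 windows. TGAGTCA, the AP-1 motif, was also present in 1 of the 8 windows and in 5.20% of all windows. It lay in the Gpnmb window in reverse complement, with its first base at position 9 counted from the RefSeq start (chr6:49036526-49036532), upstream of the GENCODE start. It is written in capitals within its surrounding bases (chr6:49036515-49036543, + strand).
Gpnmb site: ccaggggcaagTGACTCAtgagcacgagt

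The motifs of the MiT/TFE factors, which drive lysosomal genes, were in none of the 8 windows. They were TCACGTGA, the core of the CLEAR element, found in 0.974% of all windows, and TCATGTG, the M-box, found in 3.77%. A match or its absence describes only these letters in these windows.

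On HFD, 6 of the 10 members were higher with an adjusted p-value under 0.05 (edgeR's quasi-likelihood test, Benjamini-Hochberg adjustment over all genes tested) and 0 were lower. These 6 were Gpnmb, Spp1, Trem2, Lgals3, Tyrobp and Cd9. At an unadjusted p under 0.05, 9 were higher and 0 lower, and 0 were lower by DESeq2 or limma-voom. At the adjusted threshold, 9.85% of all genes tested were higher and 6.04% lower. Their shares at an unadjusted p under 0.05, and in each direction by DESeq2 or limma-voom, were not counted. Such counts therefore have no background share here or in the lists below. All 10 had a positive log2 fold change, as did 50.5% of all genes tested. Every HFD value lay above every ND value in 8 of the 10, against 21.7% of all genes. The median log2 fold change of the 10 members was 2.50, and that of all genes tested was 0.0074.

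**Figure D1:**
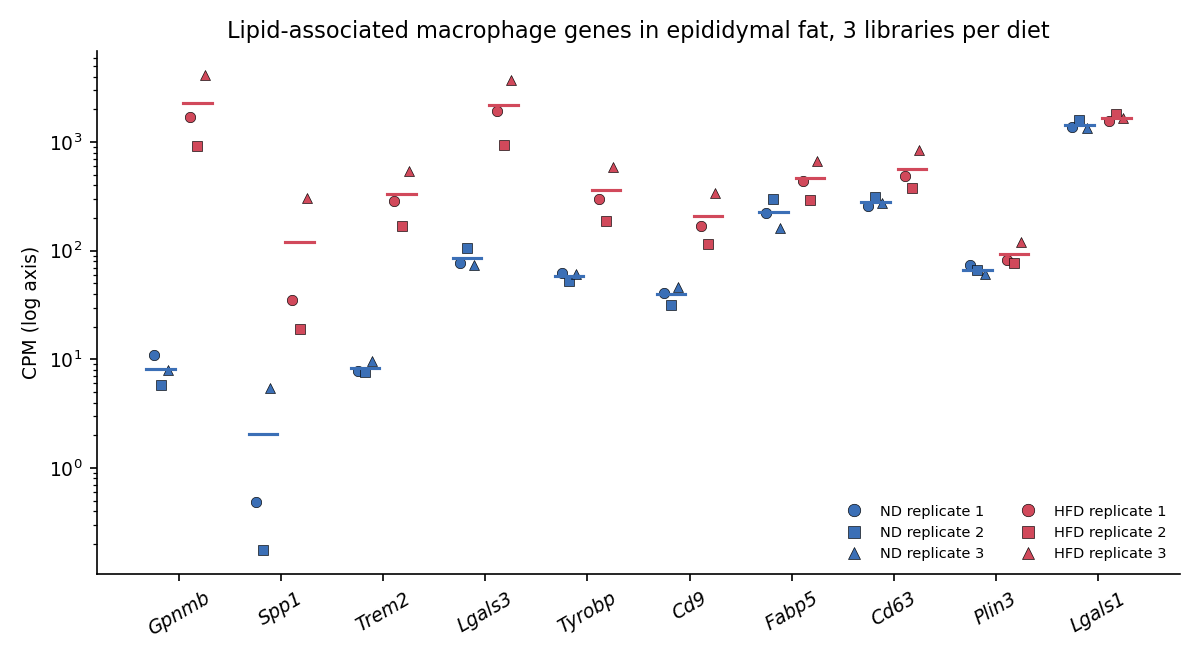
Each point is 1 library, with CPM on a log axis, blue for ND and red for HFD, and the horizontal line is the mean of the 3 libraries. Gpnmb has the widest gap between diets, with 5.80 to 11 CPM on ND against 916 to 4187 CPM on HFD, while the points of Fabp5 and Lgals1 overlap between diets.

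Trem2 (ENSMUSG00000023992, chromosome 17 from 48346401 to 48354147) had 7.77, 7.66 and 9.70 CPM in ND replicates 1, 2 and 3 and 286, 168 and 544 CPM in HFD replicates 1, 2 and 3. The ND libraries were within 1.27 times of each other, and the lowest HFD library was far above all of them. The means were 8.38 ± 1.15 and 333 ± 192 CPM (SD, n = 3 each), a 39.7-fold difference, and the log2 fold change was 5.31 ± 0.47 (SE, adjusted p = 0.00344 from edgeR's test). Its adaptor gene Tyrobp (ENSMUSG00000030579, chromosome 7 from 30413760 to 30417585) had 62.8, 52.4 and 61.0 CPM on ND against 301, 188 and 587 CPM on HFD. The groups did not overlap. The log2 fold change of Tyrobp was 2.61 (SE 0.40, adjusted p = 0.0104 from the same test), a 6.11-fold difference of the means.

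Receptor and adaptor thus rose by different factors. The ratio of their FPKM values (counts per length and library size) was 59.9, 50.7 and 46.6 of Tyrobp over Trem2 on ND and 7.80, 8.32 and 8.0 on HFD. The HFD libraries, which differed more than 3-fold in either gene, had nearly the same ratio, 8.04 ± 0.26 (SD, n = 3). The ND ratio was 52.4 ± 6.82 (SD, n = 3), and the groups did not overlap. The absolute ratio depends on the gene lengths, for which the merged exons span 4946 bases in Trem2 and 667 in Tyrobp, whereas the change between diets does not. This pair and the other ratios below were chosen after their values were seen.

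The TREM2 pathway list holds genes upstream as well as downstream of the receptor. Of its 21 genes, 13 were higher on HFD and 0 were lower by edgeR's test, with a median log2 fold change of 1.38. Lat2, which encodes a membrane adaptor, had the largest at 3.88 (SE 0.53, adjusted p = 0.00832), with means of 4.75 ± 0.54 and 69.9 ± 48.1 CPM (SD, n = 3 each). Its exons share 952 bases with those of Rfc2 on the other strand. Syk, the kinase that binds TYROBP, had 37.1, 36.5 and 42.4 CPM on ND against 202, 121 and 355 CPM on HFD, with no overlap. Its log2 fold change was 2.55 ± 0.37 (SE, adjusted p = 0.00958 from the same test). Tec, a kinase of the same cascade, rose by 2.52 in log2 fold change (adjusted p = 0.00752). The upstream genes of the list, named for their role after their values were seen, did not pass. Apoe and Clu, whose products bind TREM2, had log2 fold changes of -0.52 and -0.07 (adjusted p = 0.229 and 0.884), and their values overlapped between diets. Adam10 and Adam17, whose proteases release the ectodomain of TREM2, had 0.44 and 0.74 (adjusted p = 0.0558 and 0.0778). In both, every HFD value lay above every ND value, as in 21.7% of all genes tested. Without HFD replicate 1, ND replicate 1 or ND replicate 2, the number of pathway genes called higher was 6, 5 and 5.

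Among other members of the Trem family and receptors that use TYROBP, 5 of the 11 tested were higher and 0 were lower by edgeR's test, while Trem1 and Trem3 had too few counts to test. Siglec15, a sialic acid-binding receptor known from osteoclasts, had 0 counts in each ND library and 70, 17 and 126 counts in HFD replicates 1, 2 and 3. Set against the floor of 3 counts per library, the HFD mean was at least 23.2-fold higher, and edgeR's test gave an adjusted p of 0.0193. Treml1 had 1, 0 and 0 counts on ND against 30, 44 and 32 on HFD (adjusted p = 0.00619). Cd300lb, an activating lipid-binding receptor, had 173, 137 and 197 counts on ND against 2135, 1201 and 3931 on HFD, a log2 fold change of 3.93 ± 0.43 (SE, adjusted p = 0.00583). The median log2 fold change of this list was 1.74, also with Siglec15 at its bound. Without ND replicate 1, 2 or 3 the number called higher was 2, 3 and 2, and without HFD replicate 1 it was 2.

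Gpnmb (ENSMUSG00000029816, chromosome 6 from 49036546 to 49070929) had the largest change of the members. It had 11, 5.80 and 7.90 CPM on ND against 1702, 916 and 4187 CPM on HFD. The means were 8.22 ± 2.59 and 2268 ± 1708 CPM (SD, n = 3 each), which differ 276-fold, and the log2 fold change was 8.11 ± 0.73 (SE, adjusted p = 0.00344 from edgeR's test). HFD replicate 3 held 4.57 times as much as HFD replicate 2, yet the diets were far apart. Pmel, which encodes the melanosome protein most closely related to GPNMB and was picked after its value was seen, had 1.19 CPM on ND against 0.729 CPM on HFD and did not pass (adjusted p = 0.184).

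Spp1 (ENSMUSG00000029304, chromosome 5 from 104435118 to 104441050) had the least even values. Its counts were 9, 3 and 109 on ND and 638, 316 and 5328 on HFD, or 0.486, 0.174 and 5.45 CPM against 34.9, 19 and 307 CPM. ND replicate 3 and HFD replicate 3 were high within their groups, though the groups did not overlap. The log2 fold change was 5.84 ± 1.48 (SE, adjusted p = 0.0391 from edgeR's test), and the means were 2.04 ± 2.96 CPM and 120 ± 162 CPM (SD, n = 3 each). The high ND value lay in the library with the epithelial and cilium markers, whose part in it was not tested. Leaving out that library gave a log2 fold change of 8.41 (adjusted p = 0.0536 from edgeR's test), and the call held in 1 of the 6 fits that left out a library, the one without HFD replicate 2. With all libraries it was lost in 3 of the 11 other settings, with an adjusted p of 0.125 by limma-voom, 0.196 by edgeR without a filter and 0.0978 by limma on log2(FPKM + 1) without a filter. Exons of Spp1 share 309 bases with those of Gm42793 on the same strand.

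The osteopontin receptor list had 3 of 9 genes higher and 1 lower by edgeR's test, with a median log2 fold change of 0.51, and DESeq2 called 5 higher. Cd44, a receptor for hyaluronan and osteopontin, had 35.0, 42.6 and 29.8 CPM on ND against 264, 130 and 421 CPM on HFD, with a log2 fold change of 2.92 ± 0.42 (SE, adjusted p = 0.00918). The integrin genes Itga4 and Itga5 had log2 fold changes of 1.51 and 1.21 (adjusted p = 0.0131 and 0.0249), and Itga4 shares 1124 exon bases with Cerkl. Itga8, a further integrin subunit, fell by 1.39 on the log2 scale (adjusted p = 0.0344) and was below every ND value in each HFD library, as were 19.1% of all genes tested. Only 1 gene of the list was called higher in the fits without ND replicate 1, 2 or 3 or without HFD replicate 1.

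The tetraspanins differed in size of change. Cd9 (ENSMUSG00000030342, chromosome 6 from 125460266 to 125494791) had 40.9, 31.7 and 46.8 CPM on ND against 170, 116 and 339 CPM on HFD. The groups did not overlap, and the log2 fold change was 2.39 ± 0.40 (SE, adjusted p = 0.0124 from edgeR's test). Its exons share 218 bases with Gm26728 on the other strand, and the counting is not stated to use strand. Cd63 (ENSMUSG00000025351, chromosome 10 from 128900989 to 128912822), the tetraspanin of late endosomes, had 258, 312 and 272 CPM on ND against 492, 375 and 845 CPM on HFD. Its groups did not overlap either, but the log2 fold change of 1.02 (SE 0.30) did not pass the test (adjusted p = 0.0591). The other 5 tetraspanins, from the list of relatives, are named for their family after their values were seen. Cd53 and Cd37, found mainly on leukocytes, had log2 fold changes of 2.33 and 1.87 (adjusted p = 0.0132 and 0.00872). Cd81, Cd82 and Cd151 had -0.11, -0.36 and -0.25 and did not pass (adjusted p = 0.636, 0.264 and 0.427).

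The galectins parted most clearly. Lgals3 (ENSMUSG00000050335, chromosome 14 from 47367751 to 47386160), a galectin abundant in macrophages, had 77.8, 106 and 73.7 CPM on ND against 1939, 949 and 3757 CPM on HFD. The means were 85.7 ± 17.4 and 2215 ± 1424 CPM (SD, n = 3 each), and the log2 fold change was 4.69 ± 0.54 (SE, adjusted p = 0.00624 from edgeR's test). Lgals1 (ENSMUSG00000068220, chromosome 15 from 78926725 to 78930465), which is used by many stromal cells, had 1377, 1604 and 1338 CPM on ND against 1557, 1818 and 1650 CPM on HFD. ND replicate 2 lay above HFD replicate 1, and the log2 fold change of 0.22 (SE 0.19) did not pass the test (adjusted p = 0.446). By FPKM, Lgals1 stood 36.4, 31.2 and 37.3 times above Lgals3 on ND and 1.65, 3.94 and 0.904 times on HFD. In HFD replicate 3, therefore, Lgals3 was the higher of the pair. Lgals12, an adipocyte galectin of lipid droplets, went the other way, with 354, 351 and 346 CPM on ND against 129, 192 and 56.7 CPM on HFD, and fell by 1.48 on the log2 scale (SE 0.39, adjusted p = 0.0453 from edgeR's test).

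Neither of the lipid-handling members passed the test. Fabp5 (ENSMUSG00000027533, chromosome 3 from 10012548 to 10016607) had 221, 302 and 161 CPM on ND against 435, 291 and 674 CPM on HFD. HFD replicate 2 lay just below ND replicate 2, and the log2 fold change of 1.03 (SE 0.35) did not pass edgeR's test (adjusted p = 0.0864). Plin3 (ENSMUSG00000024197, chromosome 17 from 56277476 to 56292873) had 73.9, 66.3 and 60.7 CPM on ND against 82.7, 76.7 and 120 CPM on HFD. The groups did not overlap, by a margin of less than 3 CPM, and the log2 fold change of 0.47 (SE 0.19) did not pass (adjusted p = 0.125). The near-identical copies that Fabp5, Cd63 and Lgals1 may have elsewhere in the genome could take or add reads, which makes the smaller changes of these members uncertain.

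Of the members' 19 tested relatives, 4 were higher and 1, Lgals12, was lower by edgeR's test, and Fabp1 had too few counts to test. Their median log2 fold change was -0.11, with 9 of the 19 positive. Fabp7, a fatty acid-binding protein known from glia, had the largest increase, with 10, 10 and 3 counts on ND against 84, 39 and 151 on HFD (log2 fold change 3.62, adjusted p = 0.0157). Plin2, the droplet coat protein of lipid-loaded cells other than adipocytes, had 235, 345 and 172 CPM on ND against 1260.4, 803 and 2402 CPM on HFD, a log2 fold change of 2.57 ± 0.46 (SE, adjusted p = 0.0145). By FPKM, Plin2 over Plin3 was 3.42, 5.60 and 3.06 on ND and 16.4, 11.3 and 21.6 on HFD, with no overlap. Plin1 over Plin3, a comparison with the adipocyte coat protein, was 21.9, 25.3 and 20.7 on ND and 10.1, 16.5 and 4.4 on HFD. Fabp4, the adipocyte relative of Fabp5, exceeded Fabp5 by 45.9, 36.2 and 53.1 times on ND and 18.5, 39.3 and 8.24 times on HFD, and here HFD replicate 2 lay within the ND range. Without ND replicate 1, ND replicate 2 or HFD replicate 1, the relatives called higher numbered 1, 2 and 1.

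**Figure D2:**
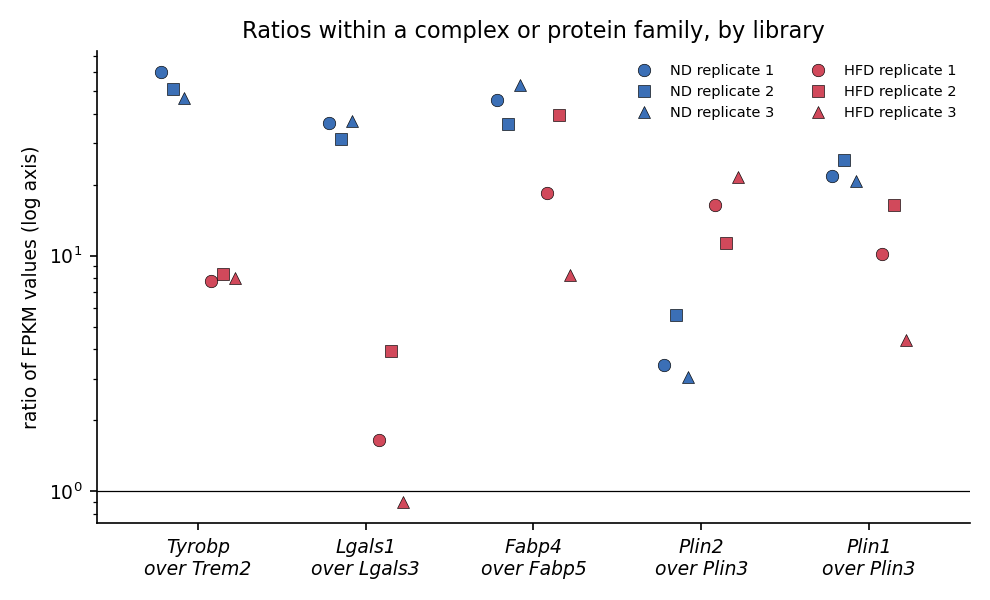
Ratio of the FPKM values of 2 genes in each library, on a log axis, with blue for ND and red for HFD and 1 symbol per replicate number. Tyrobp over Trem2 falls to a narrow band of 7.80 to 8.32 in the HFD libraries, whereas the other ratios spread among them.

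Ordered by mean FPKM on ND, the members ran from Lgals1 (1618) through Tyrobp (89.3), Cd63 (77.4), Fabp5 (64.9), Lgals3 (46.8), Cd9 (19.7) and Plin3 (17.9) to Trem2 (1.72), Gpnmb (1.28) and Spp1 (1.24). The libraries of neighbours overlapped in this order except at 3 steps, between Lgals1 and Tyrobp, between Lgals3 and Cd9 and between Plin3 and Trem2. On HFD the order was Lgals1 (1863), Lgals3 (1196), Tyrobp (540), Gpnmb (349), Cd63 (156), Fabp5 (131), Cd9 (102), Spp1 (73.1), Trem2 (67.5) and Plin3 (24.7). Only Trem2 and Plin3 did not overlap among neighbours there. Gpnmb was thus among the lowest members on ND, at the 23.9th percentile of all genes tested, and at the 99.3rd percentile on HFD. These levels depend on the merged exon length used for each gene.

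Other genes known from lipid-associated macrophages rose as well, with 15 of 18 higher and 0 lower by edgeR's test and a median log2 fold change of 2.21. Atp6v0d2, a subunit of the vacuolar proton pump of macrophages and osteoclasts, had 1.73, 1.74 and 1.75 CPM on ND against 270, 128 and 573 CPM on HFD, a log2 fold change of 7.53 ± 0.65 (SE, adjusted p = 0.00338). Mmp12, the macrophage elastase, had 14.5, 8.29 and 7.35 CPM on ND against 938, 571 and 3481 CPM on HFD (log2 fold change 7.37, adjusted p = 0.00624), and its exons share 157 bases with Mmp1b on the other strand. Itgax, which encodes CD11c, rose by 4.54 in log2 fold change (adjusted p = 0.00448). The 3 that did not pass, named after their values were seen, were Lpl, Cd36 and Abca1, with -0.33, 0.60 and 0.07 (adjusted p = 0.395, 0.114 and 0.796), of which Lpl and Cd36 are also major adipocyte genes. Every HFD value lay below every ND value in Lpl and above in Cd36, as in 19.1% and 21.7% of all genes tested. Without ND replicate 1, 2 or 3 the number called higher was 9 in each case. Of the 8 MiT/TFE and lipid-sensing factors, Mitf and Tfeb were higher (log2 fold changes 1.57 and 0.90, adjusted p = 0.0130 and 0.0281) and 0 were lower, with a median log2 fold change of 0.29. DESeq2 called 4 higher and 1 lower, and at an unadjusted p under 0.05 these numbers were also 4 and 1. Neither was called without ND replicate 1, ND replicate 2 or HFD replicate 1, when 0 of the 8 were, and 1 was without ND replicate 3 and 4 without HFD replicate 2.

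**Figure D3:**
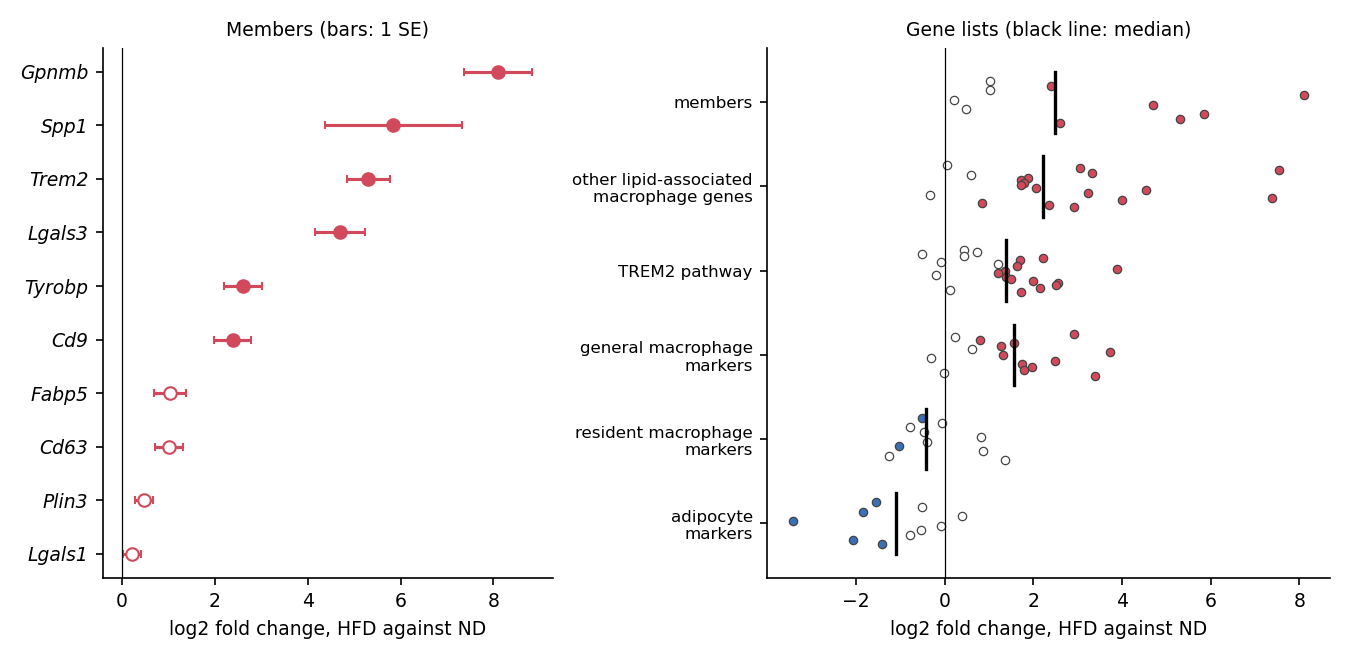
Log2 fold changes of HFD against ND from edgeR, for the members with bars of 1 standard error at left and for gene lists with a black line at the median at right; red fill marks genes higher and blue fill genes lower at an adjusted p-value under 0.05. The members reach from 0.22 for Lgals1 to 8.11 for Gpnmb, and resident macrophage markers lie on both sides of 0.

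The marker lists of cell types differed in the direction and size of their change. Of the 15 general macrophage markers, 11 were higher and 0 lower by edgeR's test, with a median log2 fold change of 1.56. The largest were those of Cd68, Mpeg1 and Adgre1, at 3.72, 3.38 and 2.91 (adjusted p = 0.00642, 0.00483 and 0.00583). The 4 that did not pass, named after their values were seen, were Cd14, Aif1, Mertk and Cx3cr1. They had 0.61, 0.23, -0.02 and -0.31 (adjusted p = 0.178, 0.571, 0.928 and 0.587), and their values overlapped between diets. Of the 10 resident macrophage markers, 0 were higher and 2, Mgl2 and Cbr2, were lower, by 1.03 and 0.50 on the log2 scale (adjusted p = 0.0406 and 0.0485). At an unadjusted p under 0.05, 3 of the 10 were higher and 6 lower, and DESeq2 called 3 and 5. Their median log2 fold change was -0.43, and the resident markers summed to 708 to 744 CPM on ND against 650 to 745 CPM on HFD. Every HFD value lay above every ND value in 3 of the 10 and below in 6, against 21.7% and 19.1% of all genes tested. The 3 were Mrc1, Folr2 and Vsig4, named after their values were seen. Their log2 fold changes were 0.87, 0.81 and 1.36 (adjusted p = 0.0534, 0.0784 and 0.0769 from edgeR's test). Mrc1 had means of 147 CPM on ND and 269 CPM on HFD, so the similar sums hold its rise beside falls in other markers.

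Of the other leukocytes, monocyte markers summed to 89.9 to 106 CPM on ND against 84.4 to 112 CPM on HFD, and lymphocyte markers to 23.1 to 32.5 CPM against 21.4 to 37.2 CPM. By edgeR 0 of 5 and 0 of 11 were called, as at an unadjusted p under 0.05 and by DESeq2. Neutrophil markers summed to 5.63 to 9.34 CPM on ND against 13.6 to 19.2 CPM on HFD. Of the 3 tested, S100a8 and Csf3r were higher (log2 fold changes 1.45 and 1.36, adjusted p = 0.0219 and 0.0459), while S100a9 had 0.969 CPM on ND against 0.549 CPM on HFD and did not pass (log2 fold change -0.81, adjusted p = 0.412). Cxcr2, Ly6g, Retnlg and Mmp8 had too few counts, and limma-voom called 1 of the 3. Among 7 dendritic cell markers, Ccr7 was higher and Itgae lower (1.68 and -1.58, adjusted p = 0.0314 and 0.0333). Progenitor and fibroblast markers (0 of 9 called), endothelial markers (0 of 6) and mesothelial markers (0 of 6) had 0, 1 and 0 genes at an unadjusted p under 0.05, and DESeq2 called the same numbers. The epithelial and cilium markers had 0 of 2 and 0 of 3 called by edgeR and by DESeq2, with 1 in each list at an unadjusted p under 0.05. No marker found in the count table was at 0 in all 6 libraries. Of the 6 cilium markers listed, 5 were found there by symbol. The part of these cells in the members' values was not tested.

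To set the members against the general macrophage markers, each was divided by the summed CPM of all 15 markers in the same library. Lyz2 alone gave 943 of the 2037 CPM in ND replicate 1 and 4846 of the 10091 CPM in HFD replicate 3. On this scale 6 members were higher in every HFD library than in any ND library, and the other 4 were lower in every HFD library. The marker sum itself rose from between 1919 and 2037 CPM on ND to between 4581 and 10091 CPM on HFD. A member that rose less than this sum is therefore lower on this scale. The 4 lower members had positive log2 fold changes before the division. The share of all genes in either state on this scale was not counted. Gpnmb had 0.538, 0.298 and 0.412 CPM per 100 CPM of markers on ND and 28.6, 20.0 and 41.5 on HFD, a log2 difference of 6.15. Trem2 had 0.382, 0.393 and 0.505 on ND and 4.81, 3.66 and 5.39 on HFD, a log2 difference of 3.43. Spp1 and Lgals3 had log2 differences of 4.53 and 2.77. Among the 6 that were higher, Tyrobp and Cd9 differed least, by 0.73 and 0.54. Cd63 went from 12.7, 16.1 and 14.2 on ND to 8.26, 8.19 and 8.37 on HFD, and Fabp5, Plin3 and Lgals1 were lower by 0.73, 1.28 and 1.51 on the log2 scale.

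**Figure D4:**
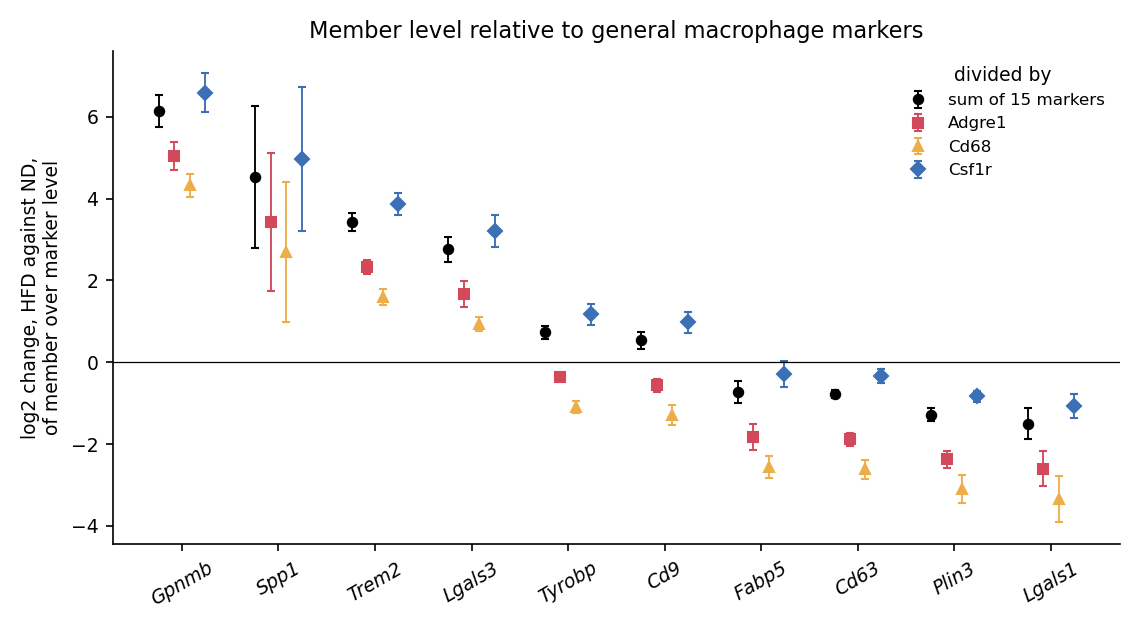
Log2 difference between diets of each member divided by the summed general macrophage markers (black) or by Adgre1, Cd68 or Csf1r alone, with bars of 1 standard error from the 3 libraries per diet. Trem2, Gpnmb, Spp1 and Lgals3 stay above 0 with each denominator, and Tyrobp and Cd9 change sign between denominators. The libraries of Spp1 overlap between diets with Adgre1 or Cd68 alone.

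The order depended on the denominator for some members. With Adgre1 alone, the gene of the F4/80 antigen, or with Cd68 alone, 3 members, namely Trem2, Gpnmb and Lgals3, were higher in every HFD library. Tyrobp then had log2 differences of -0.37 and -1.10 and Cd9 of -0.56 and -1.29 on HFD against ND, while Spp1 overlapped between diets. With Csf1r alone, 6 members were higher in every HFD library, Plin3 and Lgals1 were lower in every one, and Cd63 and Fabp5 overlapped between diets, with log2 differences of -0.34 and -0.29. Csf1r shares 873 exon bases with Hmgxb3 on the other strand.

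The HFD libraries were not alike. In 9 of the 10 members the level ran from HFD replicate 3 through replicate 1 to replicate 2, in CPM and in FPKM. The exception was Lgals1, with replicate 2 highest and replicate 1 lowest. The same order held in 32.3% of all genes tested, in 73.0% of the genes called higher on HFD and in 15 of the 15 general macrophage markers. In all 10 adipocyte markers the order was the reverse, with replicate 2 highest and replicate 3 lowest. The highest HFD library exceeded the lowest 16.1-fold in Spp1, 4.57-fold in Gpnmb, 3.96-fold in Lgals3, 3.24-fold in Trem2, 3.12-fold in Tyrobp and 2.93-fold in Cd9. In Fabp5, Cd63, Plin3 and Lgals1 the range was smaller, 2.32-fold, 2.25-fold, 1.56-fold and 1.17-fold. With 3 libraries, and with all members measured in the same libraries, the shared order is a description of these libraries.

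**Figure D5:**
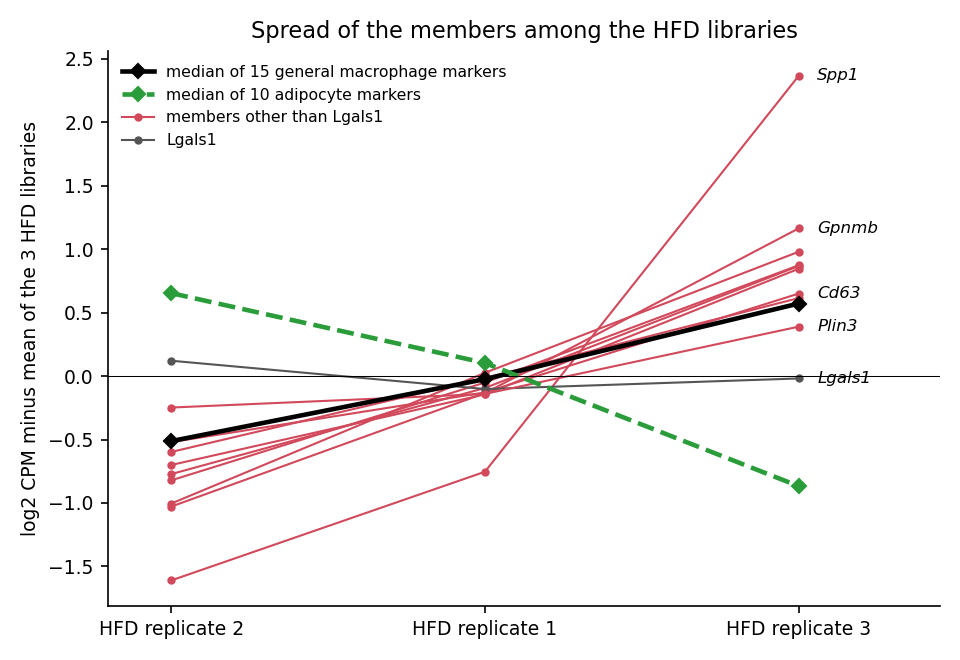
Log2 CPM of each member in the 3 HFD libraries, as the difference from their mean, with medians of 15 general macrophage markers (black) and 10 adipocyte markers (green, dashed). All members but Lgals1 are lowest in HFD replicate 2 and highest in HFD replicate 3, as are the macrophage markers, and the adipocyte markers run in the opposite direction.

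The genes whose pattern over the 6 libraries was most like that of Trem2 were sought among 12523 genes that code for protein and average more than 1 in log2 CPM. The measure was the root mean square difference in log2(CPM + 0.5), each gene centred on its own ND mean. The closest was Il7r, the receptor chain for interleukin-7, at 0.158, with 1.62, 1.45 and 1.85 CPM on ND against 80.2, 47.9 and 147 CPM on HFD. Ubd, a ubiquitin-like modifier, followed at 0.320, then Adam8, a metalloprotease of leukocytes, at 0.329 and Gdf3, a growth factor made by macrophages in AT, at 0.331. Myh15 came at rank 5, at 0.482. Gdf3 had at most 0.174 CPM in any ND library and 14.8, 7.35 and 25.9 CPM on HFD. Myh15 had at most 0.05 CPM on ND against 13.7, 6.38 and 15.1 CPM on HFD. The distances of Gdf3 and Myh15 therefore rest on the added 0.5 CPM. That of Il7r depends on it in part, since its ND values were also low. By edgeR the log2 fold change was 5.79 for Il7r and 5.31 for Trem2. Ranks without the added 0.5 CPM were not computed. Lgals3 was the member closest to Trem2, at 0.490 and rank 6, and Spp1 came next at 1.15 and rank 43.

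How firmly each member was called differed. Trem2, Gpnmb and Lgals3 passed in all 17 alternative fits, which were 11 other settings and 6 fits with a library left out. Tyrobp passed in all 11 settings and in 4 of the 6, Cd9 in 10 and 4, and Spp1 in 8 and 1. Without ND replicate 1 or without ND replicate 2, the members called higher were Trem2, Gpnmb and Lgals3 alone, 3 of 10, and without HFD replicate 2 they were 8 of 10, with Cd63 and Fabp5 added. DESeq2's Wald test also called 8, and among all genes it called 3666 in either direction, against 2504 in the main test. Plin3 and Lgals1 passed in 0 of the 17 fits.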

How the data were processed

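Epididymal fat was sequenced as 3 RNA-Seq libraries per diet, grouped by the sample labels. A replicate number shared by ND and HFD does not mark a shared animal. The authors deposited raw counts per gene, not normalized, and FPKM values for the same genes. The paper's methods give GRCm38 with TopHat and Cufflinks, whereas the submitters' processing notes list HISAT2 2.0.5, featureCounts 1.5.0-p3 and the human build GRCh38. All identifiers are mouse Ensembl genes, and 54495 of 54532 were found in GENCODE M21 (GRCm38), from which names and coordinates were taken. Strand use in counting is not given in the sources used here.

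Counts were tested with edgeR 4.0.16 under R 4.3.3 (TMM, glmQLFit and glmQLFTest with robust=TRUE, filterByExpr, diet as the only factor) over all 15751 genes that passed the filter, with Benjamini-Hochberg adjustment and a threshold of 0.05. Standard errors were derived from the F statistic. With 3 against 3, the smallest p of an exact permutation test is 0.1, and none was run. The alternatives tried were the Wald test of DESeq2 1.42.0, voom in limma 3.58.1, other normalizations and filters, a block for the replicate number, fits without each library in turn, and limma on log2(FPKM + 1) or log2(FPKM + 0.1) for genes that reached an FPKM of 0.5 in 3 or more libraries, and on log2(FPKM + 1) without that filter. The scripts were tested on simulated data. The check for libraries deposited more than once found none as alike as sampling noise.

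The members and lists were chosen with earlier results of these data known. Named genes are the members, up to 3 genes per list and direction with the largest change among those called, the 5 genes most like Trem2, and genes chosen after their values were seen for their role or family, for a ratio with a member, or because they did not pass the test or the filter. Counts of list members are descriptions, with no set test.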

Additional observations from a re-analysis of the deposited data

How the results depend on the processing

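The number of members called higher, 6 in the main test, ranged from 3 to 8 over the fits that left out 1 library, with 3 without ND replicate 1 and without ND replicate 2, and from 4 to 8 under the other 11 settings. The number called lower was 0 in all 17. Over all genes tested, 2504 were called. Leaving out 1 library gave from 474 (without HFD replicate 1) to 3940 (without HFD replicate 2), with 492, 591 and 1003 without ND replicates 1, 2 and 3, and limma on log2(FPKM + 1) without a filter called 649. In that last setting 6 genes of the TREM2 pathway, 2 of the Trem family and TYROBP-coupled receptors, 9 of the other lipid-associated macrophage genes and 1 each of the osteopontin receptors and the relatives were called higher. Fewer libraries leave fewer degrees of freedom, and otherwise the cause was not tested. The direction of all 10 members was kept in all 17 fits. Spp1 was not called in 8 of them, with log2 fold changes from 3.68 to 8.41 over the libraries left out and an adjusted p from 0.0200 to 0.130. Divided by Adgre1 or Cd68 alone in place of the summed macrophage markers, the members higher in every HFD library numbered 3 in each case, the log2 difference of Tyrobp was -0.37 and -1.10, and that of Cd9 was -0.56 and -1.29. The replicate numbers did not pair the libraries, since deviations of same-numbered ND and HFD libraries correlated at -0.053, -0.022 and 0.0034, and with the replicate block 6 members were called higher. Plin3 and Lgals1 passed in 0 of the 17 fits, which does not show that their levels were equal.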
